A study of Mus musculus with 92 samples.

Results

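Transcripts of collagens, laminins and integrins were described in quadriceps muscle of 92 mice. Members were the genes whose symbol has the collagen chain form (Col, a number, a, a number), the laminin chain form (Lama, Lamb or Lamc and a digit) or begins with Itga or Itgb, each gene identifier counted 1 time. They were 70 of the 13441 genes measured: 34 collagens, 10 laminin chains and 26 integrin-named genes, of which 4 encode no integrin chain. The animals were 1 group of DOz mice, an outbred stock whose animals differ in the alleles they carry, aged about 18 to 20 weeks and kept on chow for life. No other diet, treatment or genotype group was present, so every comparison is between genes, or between animals by the level of a gene. Sex and genotypes were not analysed here, and nothing in the labels ties animals to a litter or cage.

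Collagens are triple helices of 3 chains that build most of the connective tissue around muscle fibres. Fibrillar types (I, III, V) form the load-bearing fibrils, whereas type IV forms a sheet-like network in the basement membrane that wraps each fibre and capillary, where laminins polymerise beside it. Laminins are trimers of an alpha, a beta and a gamma chain, and integrins are alpha-beta pairs in the cell membrane that bind collagens, laminins or other ligands and join them to the cytoskeleton.

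The values are log2 expression, so a difference of 1 is a doubling, and in linear units an animal summed to between 898071 and 1140761. A level compared between genes is given per kilobase of merged exon length. The 70 members together held from 0.155% to 0.524% of the summed expression of an animal, with a median of 0.232%. Mean level was below 1 in 16 members, and 54 lay at 1 or above. The table holds no read totals, so sequencing depth is unknown and the spread between animals is the only measure of precision. In whole-muscle RNA, fewer cells of a type and less RNA per cell cannot be told apart.

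The defining markers of fast muscle were abundant: the summed level of 8 fast-fibre genes, Myh4 the highest of them, ranged from 89211 to 184327 in linear units over the animals. Some libraries stood apart. Animal 84 (animals are numbered in accession order) was highest of all 92 in 23 of the 70 members, against 6.58% of all genes, and it had the lowest fast-fibre sum and the second highest macrophage marker sum. Animals 1 and 62 were lowest in 12 and 11 members, against 3.67% and 3.17% of all genes. Animal 1 had the highest fast-fibre sum and the lowest tendon and satellite-cell sums, and ranked 91, 90 and 90 of 92 in endothelial, mural and macrophage sums. Over all genes animals 29 and 69 stood apart as well, lowest in 8.30% and 5.62% and highest in 5.12% and 4.19%. Among the members animal 29 was highest in 1 and lowest in 0, and animal 69 was lowest in 6. Animal 69 had the lowest endothelial, mural and Schwann-cell marker sums of the 92. Some results below are also given without these animals. Excess spread, within-animal differences and the fits on Col6a1, Lamb1, Col24a1 and Itgb6 were not run without them. Sample title numbers fall into 5 runs of 33, 14, 21, 11 and 13 animals, whose meaning the labels do not give. Between these runs 0 of 70 members differed after adjustment (limma F-test, Benjamini-Hochberg over all genes), and 8 had an unadjusted p under 0.05. Over all genes, 0.0149% differed after adjustment and 8.33% before it.

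Several members lie side by side in the genome, and the collagen IV pair overlaps. In GENCODE M21 (GRCm38, the mm10 assembly), Col4a1 (ENSMUSG00000031502) runs on the minus strand from 11312826 down to 11198423 of chromosome 8, and Col4a2 (ENSMUSG00000031503) on the plus strand from 11312805 to 11449287. The run below, chr8:11312801-11312830 read on the plus strand, is shown because it holds both starts. Capitals mark the 22 bases from the first base of Col4a2 to the first base of Col4a1, which both genes cover on opposite strands.
Col4a1 and Col4a2 starts: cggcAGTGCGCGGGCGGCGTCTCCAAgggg
Whether the counting used strand is not given in the sources used here, so reads from these bases cannot be assigned to 1 of the genes.

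Promoters were read for the 53 members found in the RefSeq promoter table (GRCm38.p6). Motifs were searched on both strands from 250 bases before to 50 after the start. The TATA box, spelled TATAAA, was present in 3 of the 53 (5.66%), against 15.7% of the 27025 genes of the table. The CCAAT box was present in 13 (24.5%), against 41.1%. The GC box, spelled GGGCGG, was present in 30 (56.6%), against 38.2%. Among the 28 collagens the counts were 3, 9 and 18. The 250 bases before the start are shown for 2 fibrillar chains that varied together, Col3a1 (chr1:45311288-45311537, plus strand) and Col5a1 (chr2:27886175-27886424, plus strand), and for Itgb1 (chr8:128685404-128685653, plus strand), the least variable integrin chain relative to its level among members with a mean of at least 1. Capitals mark matches to the motifs.
Col3a1: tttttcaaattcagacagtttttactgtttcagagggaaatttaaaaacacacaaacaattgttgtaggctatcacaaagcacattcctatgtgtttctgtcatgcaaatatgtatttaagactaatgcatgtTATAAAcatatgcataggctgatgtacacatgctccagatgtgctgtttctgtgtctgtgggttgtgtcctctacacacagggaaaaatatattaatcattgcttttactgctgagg
Col5a1: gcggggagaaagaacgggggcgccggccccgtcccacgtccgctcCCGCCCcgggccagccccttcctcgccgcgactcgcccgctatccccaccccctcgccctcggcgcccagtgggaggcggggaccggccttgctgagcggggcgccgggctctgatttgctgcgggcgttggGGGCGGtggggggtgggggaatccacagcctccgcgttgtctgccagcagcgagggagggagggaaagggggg
Itgb1: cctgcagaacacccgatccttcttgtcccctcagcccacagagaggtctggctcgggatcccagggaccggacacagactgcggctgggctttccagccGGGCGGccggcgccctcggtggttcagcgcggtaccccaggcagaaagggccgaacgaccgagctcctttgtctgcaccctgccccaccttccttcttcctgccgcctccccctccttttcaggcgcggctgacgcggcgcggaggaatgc
Col3a1 held a single TATAAA in a stretch of 35.2% G and C, and Col5a1 held 2 matches to GGGCGG in a stretch of 76.4% G and C. Itgb1 held 1 GGGCGG. The windows of the 2 collagens thus held different motifs. A match is a description of the letters and not a binding site.

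Among the fibrillar collagens, the tensile fibril formers, Col3a1, Col1a1 and Col1a2 had the highest levels. Over the 92 animals Col3a1 (chromosome 1, 45311538 to 45349706) ranged from 6.67 through a median of 7.94 to 9.85. Col1a1, the alpha 1 chain of collagen I (chromosome 11, 94936224 to 94953042), ranged from 5.38 through 6.98 to 8.90, and Col1a2, the alpha 2 chain (chromosome 6, 4504814 to 4541544), from 6.04 through 7.12 to 8.98. The animals were spread over 3.18, 3.52 and 2.94 log2 units for the 3 chains, with animals 84 and 66 the highest pair in each. Per kilobase, Col3a1 exceeded Col1a1 within the same animal by 0.35 ± 0.27 log2 units (SD, n = 92), in 83 of 92 animals, and by 1.02 per kilobase of the longest coding transcript. The order of Col1a1 and Col1a2 depended on the length used: Col1a1 was higher by 0.74 ± 0.16 per kilobase of merged exons and lower by 0.34 per kilobase of the longest coding transcript. Collagen V chains, which help start fibrils and limit their thickness, were lower, with means of 5.41 ± 0.29 for Col5a3, 5.15 ± 0.38 for Col5a1 and 4.97 ± 0.46 for Col5a2. The collagen XI chain Col11a1, best known from cartilage, was near the lower limit of the table at -0.06 ± 1.09.

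Basement-membrane collagens were led by the collagen IV pair. Col4a1 ranged from 6.67 through 7.56 to 8.19 and Col4a2 from 6.11 through 6.92 to 7.58, so both covered a narrower range than Col1a1, Col1a2 and Col3a1. Col4a1 exceeded Col4a2 in all 92 animals, by 0.45 ± 0.14 per kilobase. Collagen IV trimers of most tissues hold alpha 1 and alpha 2 chains in a ratio that favours alpha 1. Col15a1, a collagen of the basement-membrane zone, followed at 5.39 ± 0.38. The chains of the kidney-type network, Col4a3, Col4a4 and Col4a5, had medians of 1.45, 1.77 and 2.01.

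The beaded-filament collagen VI chains, whose loss causes human muscle disease, were at nearly equal unscaled levels: Col6a3 at 5.83 ± 0.36, Col6a1 at 5.82 ± 0.38 and Col6a2 at 5.81 ± 0.38. Per kilobase Col6a1 exceeded Col6a2 by 0.93 ± 0.13 and Col6a3 by 1.44 ± 0.30, in 92 of 92 animals each. Scaled by the longest coding transcript, the excess over Col6a2 was 0.19. Of the fibril-associated collagens, which sit on fibril surfaces, Col22a1, a chain of the muscle-tendon junction, was highest at 4.37 ± 0.55, followed by Col14a1 at 3.61 ± 0.64. Col20a1, next in this class per kilobase, was at -0.78 on that scale. Network-forming Col8a1 had a mean of 2.34 ± 0.51 and Col8a2 of -0.16 ± 0.89. The transmembrane collagens Col23a1 and Col13a1, the latter a protein of the neuromuscular junction, averaged 0.78 ± 0.72 and -0.12 ± 0.63.

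Muscle-fibre laminin is a trimer of alpha 2, a beta and gamma 1, and Lamb2, Lamc1 and Lama2 were the 3 highest laminin chains. Lamb2 ranged from 6.02 through 6.73 to 7.30, Lamc1 from 6.12 through 6.70 to 7.13, and Lama2 (chromosome 10, 26980036 to 27619758, minus strand) from 4.94 through 5.67 to 6.57. Lamb2 exceeded Lamb1, the other common beta chain, in 92 of 92 animals, by 3.07 ± 0.45 per kilobase or an 8.38-fold level. By the longest coding transcript this was 2.40, so the size but not the direction depended on the length. Lama2, the alpha chain whose loss causes congenital muscular dystrophy, exceeded the vascular chain Lama4 by 0.78 ± 0.40 in 91 of 92 animals. It exceeded Lama5, a chain of mature vessel and epithelial membranes, by 0.42 ± 0.59 in 73 of 92, which is less than its SD, and by 1.19 per kilobase of the longest coding transcript.

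Itgb1, the beta partner of most matrix-binding integrins, had the highest level per kilobase of the 70 members, or the next to highest, after Itgb1bp2, by longest coding transcript. It ranged only from 7.40 through 7.88 to 8.48 (mean 7.90 ± 0.19). It exceeded Itgb5, the next beta chain and a partner of the alpha V chain, by 1.34 ± 0.42 per kilobase in 92 of 92 animals, and Itgb6 by 4.02 ± 0.58. Itga7 (chromosome 10, 128933818 to 128958282), the laminin-binding alpha chain of muscle fibres, ranged from 5.29 through 5.94 to 6.75. It exceeded Itga6, another laminin-binding chain, by 1.60 ± 0.42 in 92 of 92 animals, and Itga3 was lower still at 2.74 ± 0.44. Other alpha chains were led by the RGD-binding Itgav at 5.08 ± 0.35, with the fibronectin receptor chain Itga5 at 3.23 ± 0.42 and Itga9 at 3.43 ± 0.45. The collagen-binding chains were Itga1 at 4.20 ± 0.35, Itga11 at 2.31 ± 0.54, Itga10 at 0.22 ± 0.63 and Itga2 at -0.18 ± 0.68. The leukocyte chains Itgb2, Itgam and Itgb7 were low, with medians of 1.52, 1.48 and -0.24.

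Of the integrin-named genes that encode no chain, Itgb1bp2 (melusin, a striated-muscle protein that binds the beta 1 tail) was the second highest member per kilobase, at 6.66 ± 0.23 unscaled. Itgb1bp1, which binds the same tail and restrains its activation, averaged 4.20 ± 0.23. Itgbl1, a secreted protein with integrin-like repeats, averaged 2.06 ± 0.61, and Itgb3bp, a centromere protein, 1.45 ± 0.41.

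**Figure D1:**
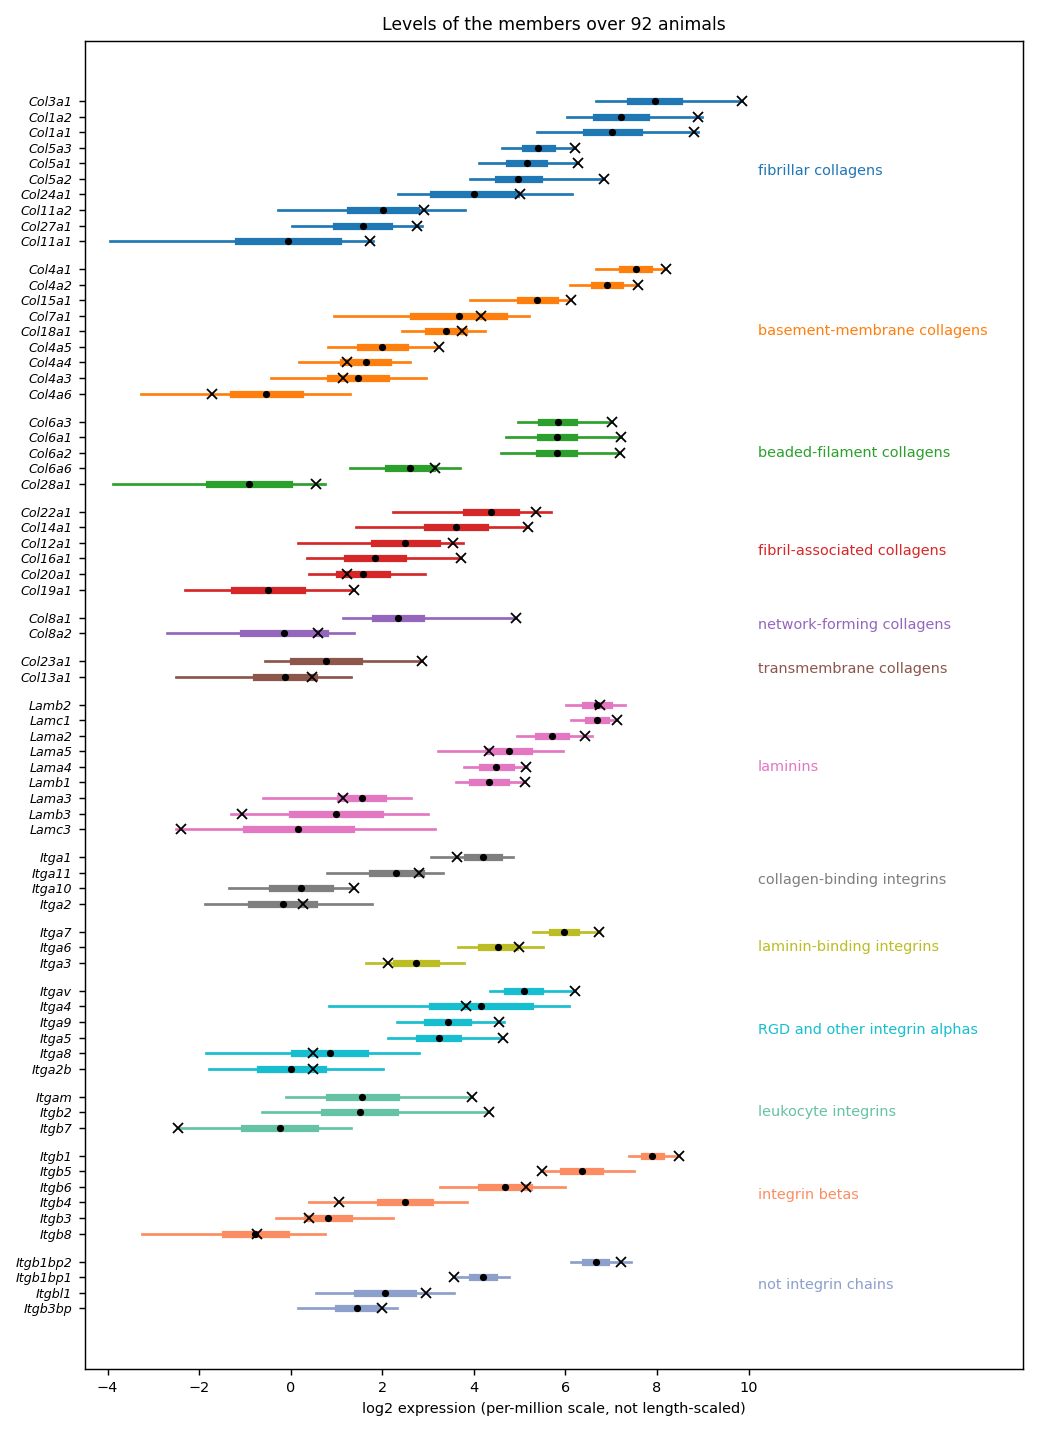
Unscaled log2 expression of 69 of the 70 members, grouped by class; the dot is the mean of 92 animals, the thick bar 1 SD to each side, the thin line the lowest to highest animal, and the cross animal 84. Col3a1 reached 9.85 in animal 84, while Itgb1 stayed between 7.40 and 8.48 in all animals.

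Members differed more between animals than genes of the same level did. Excess spread compares a gene's SD with the value of a lowess trend, fitted over all genes, at the same mean level, and is the log2 of the quotient. Its median was 0.50 over the 70 members and -0.01 over all genes, and 63 of 70 members lay above the trend, against 6585 of all 13441 genes. By class the median excess was 0.91 in fibrillar collagens, 0.76 in beaded-filament collagens, 0.71 in fibril-associated collagens, 0.57 in laminins and 0.46 in basement-membrane collagens. Among integrins it was 0.65 in the 3 leukocyte chains, 0.57 in RGD-binding and other alpha chains, 0.37 in laminin-binding and 0.26 in collagen-binding alpha chains. It was 0.37 in the 5 members linked to the fibre, its junctions or its own basement membrane (Itga7, Itgb1bp2, Lama2, Col13a1 and Col22a1), and 0.26 in integrin beta chains other than Itgb2 and Itgb7. These medians are a description and were not tested.

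Among members with a mean of at least 1, the 8 with the largest excess were 7 collagens and Itga4. Itga4, a chain of the receptor for fibronectin and the vascular adhesion molecule VCAM1, had the largest, 2.10, with values from 0.84 through 4.33 to 6.09. Col7a1, the anchoring-fibril collagen of skin, ranged from 0.94 through 3.86 to 5.21 (excess 1.86). Col24a1, a minor fibrillar chain, ranged from 2.34 through 3.94 to 6.15 (excess 1.82). In these 3 the animals were spread over 5.25, 4.27 and 3.82 log2 units. They were followed by Col1a1 at 1.51, Col1a2 at 1.41, Col3a1 at 1.40, Col14a1 at 1.20 and Col22a1 at 1.18. At the other end were Itgb3bp at -0.22, Itgb1bp1 at -0.09, Itgb1 at -0.07 and Lamc1 at -0.06, so the common beta 1 and gamma 1 chains were as steady as other genes of their level. None of the 54 members with a mean of at least 1 was split into separated groups of animals (an empty stretch of 1 log2 unit or more, with at least 5 animals on either side), which held for 0.351% of all such genes.

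**Figure D2:**
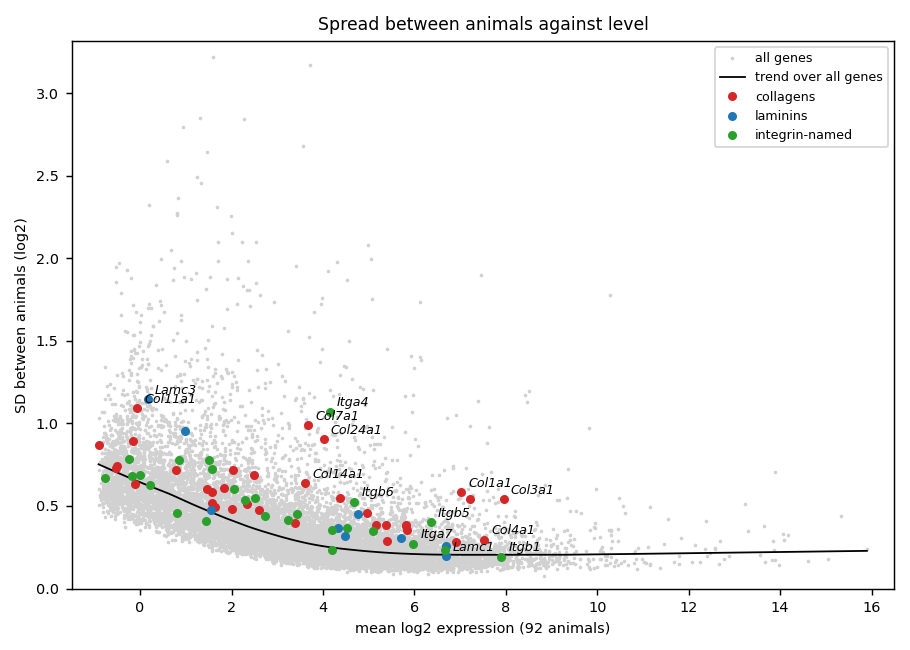
SD of log2 expression over 92 animals against mean log2 expression for all genes (grey), collagens (red), laminins (blue) and integrin-named genes (green), with the lowess trend over all genes as a line. Collagens lay mostly above the trend; Itga4, Col7a1 and Col24a1 stood farthest above it among members with a mean of at least 1, and Itgb1 and Lamc1 lay close to it.

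Of the pairs chosen, those of collagen I, collagen I with III, collagen IV and collagen VI varied together closely, and the laminin pairs and Itga7 with Itgb1 less so. Not every pair of chains followed this: Col5a1 and Col5a3 had r = 0.525, Col6a1 and Col6a6 0.427, and the leukocyte partners Itgam and Itgb2 0.824. The relations of 12 fixed pairs were computed, each tested by 100000 two-sided permutations. The smallest p these can give is 1e-05. Col1a1 and Col1a2 had r = 0.961 (rho 0.945, permutation p 1e-05 for both, n = 92), with r from 0.934 to 0.977 within the 5 title-number runs. For Col1a1 and Col3a1, r was 0.885 (0.803 to 0.926 within runs), with rho 0.842. Col4a1 and Col4a2 had r = 0.878 and rho 0.847 (0.758 to 0.930 within runs), and Col6a1 and Col6a2 r = 0.946 and rho 0.915 (0.877 to 0.986 within runs). The permutation p was 1e-05 for r and rho of these pairs, and without the 2 animals farthest from the median of the first gene r stayed at 0.849 or above in all 4. In the limma fits over all genes the adjusted p ranged from 3.11e-49 for Col1a1 and Col1a2 to 1.38e-26 for Col4a1 and Col4a2.

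The chosen pairs of laminin chains and of the fibre integrin were loosely related or not detectably related. Lamb1 and Lamc1 had r = 0.294 (rho 0.243, permutation p 0.00467 and 0.0202, n = 92), from 0.0767 to 0.557 within runs, r = 0.243 without the 2 farthest animals and 0.121 with 3 principal components removed, and an adjusted limma p of 0.0475. Lama2 and Lamc1 had r = 0.302 (rho 0.293, permutation p 0.00375 and 0.00453, n = 92), from 0.0447 to 0.466 within runs, r = 0.245 without the 2 farthest animals and 0.211 with 3 principal components removed, and an adjusted limma p of 0.102. Itga7 and its partner Itgb1 had r = 0.119 (rho 0.0825, permutation p 0.257 and 0.435, n = 92), from -0.531 to 0.398 within runs and -0.0227 without the 2 farthest animals. Itga7 and Lama2, the receptor chain and its ligand, had r = 0.0098 (rho -0.0367, permutation p 0.927 and 0.725, n = 92), from -0.0760 to 0.190 within runs and -0.161 without the 2 farthest animals. The limma adjusted p of these pairs of receptor chains and ligand were 0.508 and 0.966. A relation of Itga7 with Itgb1 or with Lama2 was thus not detected, whereas Lama2 and Itgb1 had r = 0.421. The adjusted limma p of the 4 pairs described further on were 4.9e-05 for Col1a1 and Col4a1, 0.0303 for Col1a1 and Lama2, 0.00569 for Col4a1 and Pecam1 and 3.22e-06 for Col1a1 and Pdgfra.

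The median r over all pairs within a class was 0.337 among the 10 fibrillar collagens, with 40 of 45 pairs above 0, and 0.365 among beaded-filament collagens. Between these 2 classes it was 0.409. It was 0.186 among basement-membrane collagens, 0.0140 among fibril-associated collagens (9 of 15 pairs above 0), 0.121 among collagen-binding integrin alpha chains, 0.0382 among laminins and 0.0158 among integrin beta chains other than Itgb2 and Itgb7. Fibrillar with basement-membrane collagens gave 0.113 and fibrillar collagens with fibre-linked members 0.140, against 0.0804 over all pairs of members and -0.0014 over all pairs of genes. The order of the first pair of medians turned in most alternatives: they were 0.137 and 0.123 by Spearman, 0.105 and 0.0318 with the first 3 principal components removed, 0.121 and 0.0903 without animal 84, 0.141 and 0.0739 without animals 1, 62 and 84, and 0.150 and 0.113 without animals 29 and 69. Pairs of genes share libraries and are not independent, so these medians carry no test. With the first 3 principal components of all genes regressed out, the median among fibrillar collagens was 0.192, that among beaded-filament collagens 0.185 and that between fibrillar and beaded-filament collagens 0.203. With the leukocyte integrins, whose median r with fibrillar collagens was 0.259, it turned to -0.0681.

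**Figure D3:**
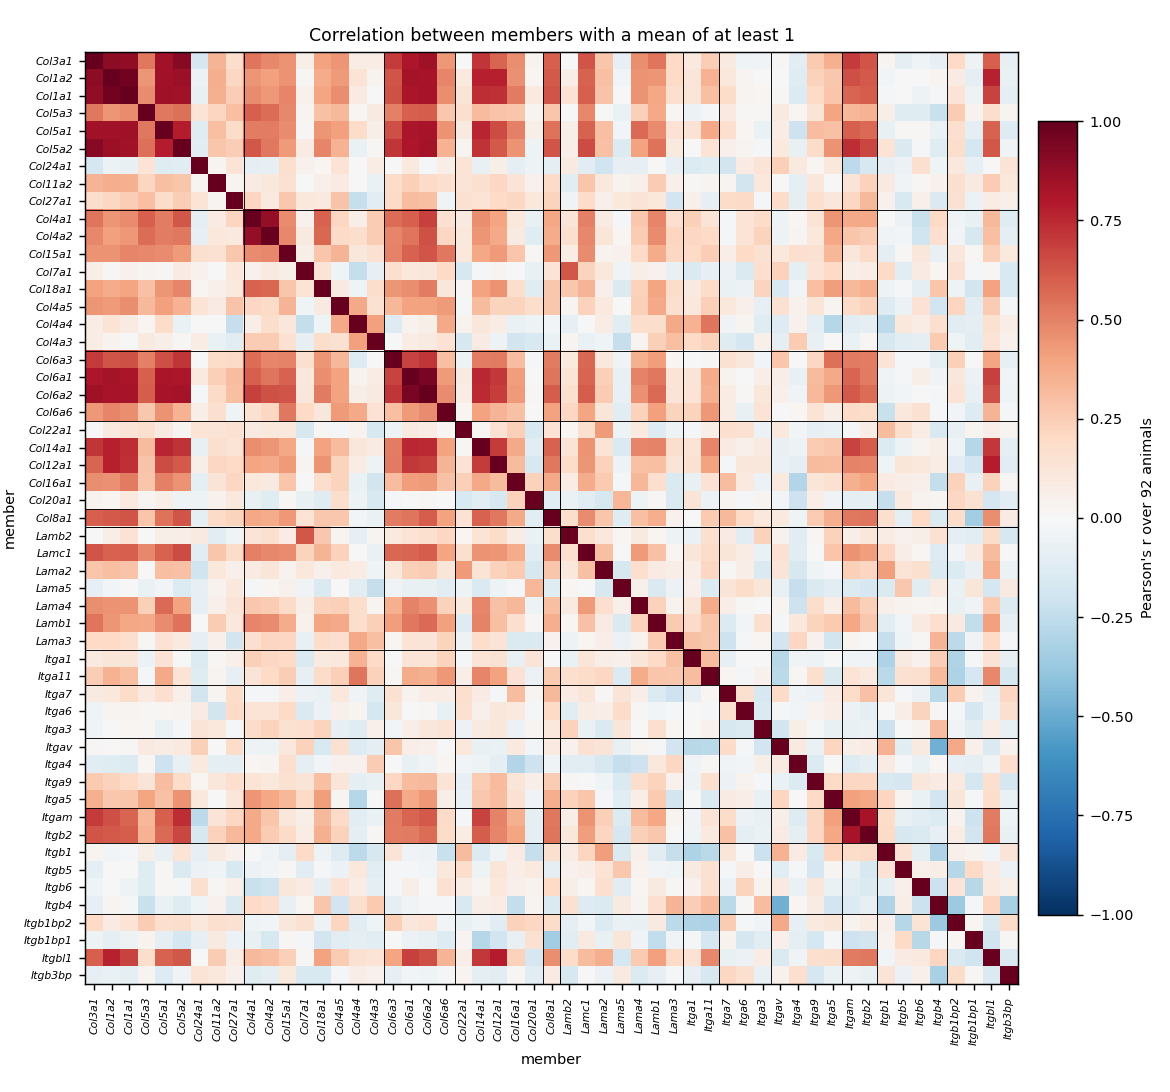
Pearson's r over 92 animals between 53 of the 54 members with a mean of at least 1, ordered by class (black lines) and within a class by mean; red is positive and blue negative. A block of high values joins Col3a1, Col1a1, Col1a2, Col5a1, Col5a2, Col6a1, Col6a2, Col14a1 and Col12a1, with r from 0.586 upwards between them. Itgbl1, Itgam, Itgb2 and Lamc1 reached r above 0.60 with some of these collagens, Itgam and Itgb2 had 0.824 and Col7a1 and Lamb2 0.624.

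Members were next related to the level of Col1a1, as the fibrillar predictor. Slopes, in log2 units for each SD of Col1a1, were tested with limma and Benjamini-Hochberg adjustment over all 13440 other genes. With higher Col1a1, 35 of the other 69 members rose and 0 fell. Of all genes 11.1% rose and 10.1% fell, and the median slope was 0.12 over members and -0.01 over all genes. Rising members were 23 of 33 collagens, 5 of 10 laminins and 7 of 26 integrin-named genes. The largest slopes were those of Col11a1 (0.73 ± 0.08, SE), Col1a2 (0.52 ± 0.02), Col12a1 (0.50 ± 0.05), Col8a2 (0.50 ± 0.08) and Col3a1 (0.48 ± 0.03).

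By class, 7 of 9 fibrillar, 4 of 5 beaded-filament, 5 of 9 basement-membrane and 3 of 6 fibril-associated collagens rose. Of the collagen VI chains, Col6a1 and Col6a2 both had slopes of 0.31 ± 0.02, Col6a3 0.23 ± 0.03 and Col6a6 0.22 ± 0.04. Of the basement-membrane collagens, Col4a1 rose by 0.14 ± 0.03 per SD of Col1a1 and Col4a2 by 0.12 ± 0.03. These slopes were well below those of Col1a2 and Col3a1, though not below those of every fibrillar chain. Laminins that rose included Lamb1 (0.14 ± 0.04), Lama4 (0.14 ± 0.03), Lamc1 (0.12 ± 0.02) and Lama2 (0.09 ± 0.03), while the slope of Lamb2 was 0.04 ± 0.03 (adjusted p = 0.332, limma).

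Most integrin chains did not pass the threshold with Col1a1. None of the 6 beta chains other than the leukocyte chains Itgb2 and Itgb7 passed the threshold, nor did any of the 3 laminin-binding alpha chains, and 0 of these 9 had an unadjusted p under 0.05 in the limma fit. Slopes were -0.002 ± 0.020 for Itgb1 and 0.05 ± 0.03 for Itga7. Of the 4 collagen-binding alpha chains 3 rose, Itga2, Itga10 and Itga11, with Itga11, a fibroblast collagen receptor, at 0.16 ± 0.05. The leukocyte integrin chains Itgb2 (0.47 ± 0.06) and Itgam (0.43 ± 0.06) rose with slopes like that of Col3a1, as did the secreted Itgbl1 (0.41 ± 0.05). Of the 5 fibre-linked members, Lama2 and Col13a1 rose.

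Genes that process collagen moved unevenly with Col1a1. Of 29 genes of collagen maturation 13 rose and 3 fell, against 11.1% and 10.1% of all genes. The share that fell was thus near that of all genes. The cross-linking enzymes rose, Lox by 0.38 ± 0.05 and Loxl2 by 0.30 ± 0.03, as did the propeptide proteinase Adamts2 (0.25 ± 0.02), its enhancer Pcolce (0.24 ± 0.02) and the chaperone Fkbp10 (0.31 ± 0.04). The prolyl hydroxylase chains P4ha1 and P4ha2 fell by 0.10 on the log2 scale each (SE 0.03), and Mia3, which helps export procollagen, fell by 0.08 (SE 0.02). The collagen chaperone Serpinh1 had a slope of 0.12 ± 0.05 that missed the threshold (adjusted p = 0.0771, limma). Of 23 interstitial matrix genes 17 rose, among them Tnc (0.55 ± 0.06), Postn (0.55 ± 0.07), Fn1 (0.38 ± 0.04) and Sparc (0.25 ± 0.02). Of 12 other basement-membrane genes 6 rose, including Nid1 and Hspg2, against 2 rising and 2 falling of 23 costamere genes.

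Markers of other cells moved with Col1a1 as well. All 8 macrophage markers rose, with summed levels from 29.6 to 257 in linear units over the animals, as did 7 of 8 fibroblast markers (257 to 693) and 6 of 7 tendon markers (38.1 in the lowest animal, 119 at the median). All 8 macrophage markers were measured, the lowest of them, Adgre1, with a mean of 1.59, while none of 5 lymphocyte markers was in the table. Of the endothelial markers 0 of 8 rose or fell and 0 had an unadjusted p under 0.05 (limma), and 5 of 8 fast-fibre markers fell, with sums from 89211 to 184327. The part of these cell markers in the members' slopes was tested only as a covariate: with fibroblast and endothelial marker scores in the model 23 members rose. The part of macrophages and tendon was not tested. Mural, adipocyte, Schwann, satellite-cell and slow-fibre markers were fitted too and are not described for Col1a1 here. With the first 3 principal components as covariates, 9 members rose (Col1a2, Col3a1, Col5a1, Col5a2, Col6a1, Col6a2, Col11a1, Col12a1 and Itgbl1). Without animal 84, 30 rose, and without animals 1, 62 and 84, 28 rose.

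With Col4a1 as the predictor, 25 of 69 members rose and 0 fell, against 6.45% and 4.28% of all genes. They were 17 of 33 collagens, 3 of 10 laminins and 5 of 26 integrin-named genes. Among the steeper slopes were those of Col11a1 (0.38 ± 0.11), Col14a1 (0.30 ± 0.06), Itgb2 (0.29 ± 0.07) and Col3a1 (0.29 ± 0.05), and Col4a2 had the most precise, 0.25 ± 0.01. Of the basement-membrane collagens Col18a1 (0.24 ± 0.03) and Col15a1 (0.18 ± 0.04) rose. Lama2 and Itga7 had slopes of 0.03 ± 0.03 and -0.01 ± 0.03. Markers of mural cells (5 of 8) and endothelium (3 of 8) rose, with summed levels of 394 to 911 and 156 to 346.1 in linear units. So did 8 of 8 macrophage, 3 of 8 fibroblast, 3 of 7 tendon and 3 of 7 adipocyte markers, while 4 of 8 fast-fibre markers fell. With 3 principal components as covariates 10 members rose and with the fibroblast and endothelial scores 14 did.

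Because Col1a1 and Col4a1 were themselves related (r = 0.471, rho 0.436, permutation p 2e-05 and 4e-05, n = 92, from 0.20 to 0.654 within runs, r = 0.464 without the 2 farthest animals and 0.256 with 3 principal components removed), both were put in 1 model and their slopes compared. Of the 68 members other than the predictors, 12 had a steeper slope on Col1a1 and 1 on Col4a1, against 1.87% and 1.55% of all genes, 3.42% in either direction (limma, adjusted over 13439 genes). Steeper on Col1a1 were Col11a1, with a difference of 0.65 ± 0.16, Col23a1 (0.57 ± 0.13), Col1a2 (0.53 ± 0.03), Col16a1 (0.48 ± 0.10) and Col12a1 (0.44 ± 0.09), and with smaller differences Itgbl1, Col3a1, Col14a1, Col6a6, Col5a1, Col5a2 and Col6a1. Col4a2 was the single member steeper on Col4a1, by 0.24 ± 0.03. With Col4a1 held fixed, its slope on Col1a1 was 0.007.

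Of the collagen V chains, Col5a1 and Col5a2 were steeper on Col1a1. Col5a3 had 0.07 on Col1a1 and 0.14 on Col4a1, a difference of -0.07 ± 0.05 that did not pass (adjusted p = 0.429, limma), and the chains were not tested against each other. Lama2 (difference 0.12 ± 0.06, adjusted p = 0.281) and Itga7 (0.11 ± 0.05, adjusted p = 0.279) did not pass either. With 3 principal components as covariates, Col1a2, Col3a1 and Col4a2 kept their calls of the 13, and with the marker scores 8 members were called.

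**Figure D4:**
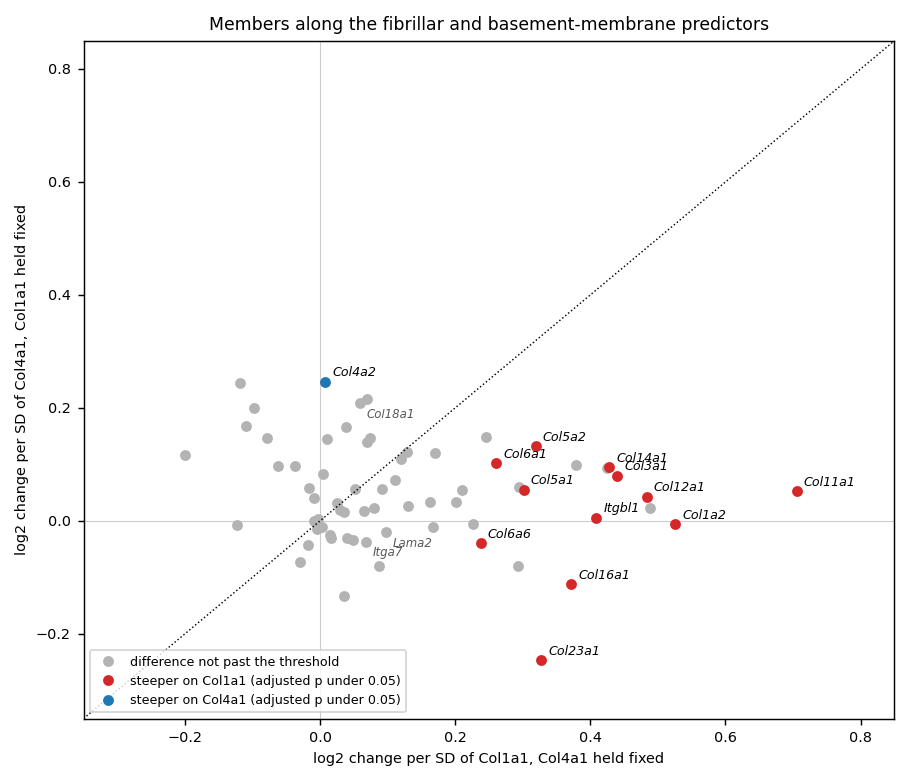
Slopes of 67 members on Col1a1 with Col4a1 held fixed (x, log2 per SD) against their slopes on Col4a1 with Col1a1 held fixed (y, log2 per SD); the dotted line marks equal slopes. The 12 red members lie to the right of the line with Col1a2 at 0.53 and -0.01, the blue Col4a2 lies above it at 0.01 and 0.25, and grey members did not differ past the threshold.

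With Lama2, 5 of 69 members rose and 0 fell, against 0.774% and 0.945% of all genes (1.72% in either direction): Col28a1 (0.32 ± 0.08), Col22a1 (0.24 ± 0.05), Col13a1 (0.23 ± 0.06), Itgbl1 (0.22 ± 0.06) and Itgb1 (0.08 ± 0.02). Of these, Col22a1 of the muscle-tendon junction and Col13a1 of the neuromuscular junction, are fibre-linked. Col28a1 had the lowest mean of all genes measured, -0.91 ± 0.87, and Col13a1 averaged -0.12 ± 0.63, so both lay near the lower end of the table. Of the cell markers, 1 of 7 tendon and 1 of 8 macrophage markers rose with Lama2 and 1 of 8 fast-fibre markers fell, and their part in these slopes was not tested. The calls depended on animal 84. Without it Itgb1 (0.07 ± 0.02, adjusted p = 0.0329, limma) and Col22a1 (0.22 ± 0.05, adjusted p = 0.0119, limma) passed, and without animals 1, 62 and 84 Itgb1 alone did. Col1a1 and Lama2 had r = 0.285 (permutation p 0.00607) but rho 0.181 (permutation p 0.0853, n = 92), from 0.0571 to 0.495 within runs, 0.236 without the 2 farthest animals and 0.174 with 3 principal components removed.

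With Itga7, Col8a1, Col16a1, Col23a1 and Itgb2 rose, 4 of 69 members against 3.74% of all genes rising and 6% falling (9.74% in all). Their share was near that of all genes, and without animal 84 it was 0, with 0 also without animals 29 and 69, without the 2 animals farthest from the median of Itga7 and with 3 principal components as covariates. With the fibroblast and endothelial scores as covariates 10 members passed, 9 rising and 1 falling. The share of all genes in that setting is not set beside this count, which is therefore not read as a result about the members. Itgb1bp2 had a slope of 0.06 ± 0.02 on Itga7 that missed the threshold (adjusted p = 0.0863, limma). Of 12 other basement-membrane genes Hspg2, which encodes perlecan, and Fras1 rose and Smoc1 fell, and of 23 costamere genes Dmd, which encodes dystrophin, and Sgcd fell. Of the cell markers 1 of 8 endothelial rose, 1 mural marker rose and 1 fell of 8, and 1 of 8 fast-fibre markers fell.

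With Myh7, the slow myosin heavy chain, 0 of 70 members passed the threshold in the limma fit and 1 had an unadjusted p under 0.05, against 0.164% of all genes rising and 0.00744% falling after adjustment. All 7 other slow-fibre markers rose. A relation between Myh7 and the members was thus not detected, and no other slow-fibre gene was used as a predictor. With Pdgfra, a fibroblast receptor, 30 of 70 members rose and 0 fell, against 9.26% and 6.41% of all genes. They included 7 of 10 fibrillar collagens and 4 of 10 laminins, and with 3 principal components as covariates 0 rose. Markers of other cells moved with Pdgfra too: 8 of 8 macrophage, 6 of 7 other fibroblast, 5 of 7 tendon and 4 of 7 adipocyte markers rose, and 6 of 8 fast-fibre markers fell. Their part in the members' slopes was not tested. Col1a1 and Pdgfra had r = 0.524 (rho 0.410, permutation p 1e-05 and 8e-05, n = 92), from 0.102 to 0.722 within runs and 0.414 without the 2 farthest animals, and 0.0897 with the components regressed out.

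With Col6a1, 34 of 69 members rose and 0 fell, against 10.3% and 7.78% of all genes, among them 8 of 10 fibrillar collagens and 4 of 10 laminins. With Lamb1, 23 of 69 rose and 0 fell, against 5.25% and 4.07% of all genes (9.32% in all). They were 19 of 34 collagens, with Col14a1 (0.32) and Col3a1 (0.29) the steepest, but 1 of 9 other laminins. All 8 fibroblast and all 8 macrophage markers rose with either predictor, as did 7 of 7 tendon markers with Col6a1 and 1 of 7 with Lamb1. Animal 84 had the highest level of both predictors, and these fits were not run without it.

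With Pecam1, an endothelial adhesion molecule, Col4a1 was the single member that rose of 70 (0.11 ± 0.03, adjusted p = 0.0174, limma), against 1.48% of all genes rising and 0.551% falling (2.03% in all). The share of members that rose was near that of all genes. Of the markers, 6 of 7 other endothelial, 5 of 8 mural and 1 of 7 tendon rose with Pecam1. Without animal 84, Col4a2 (0.11) and Col11a1 (0.36) rose with it, making 3, and without the 2 animals farthest from the median of Pecam1 the count was 0. Col4a1 and Pecam1 had r = 0.381 (rho 0.361, permutation p 0.00025 and 0.0005, n = 92), from -0.0941 to 0.618 within runs, and r = 0.334 without the 2 farthest animals. Their r was 0.459 without animal 84 and 0.4425 with 3 principal components removed.

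Position in the genome accompanied some pairs. Col3a1 and Col5a2, which lie 24.6 kb apart on opposite strands of chromosome 1, had r = 0.911. Col6a1 and Col6a2, 85.2 kb apart on chromosome 10, had 0.946. Other neighbours were less alike: r was 0.413 for Col4a3 and Col4a4, 72 bases apart, 0.151 for Col4a5 and Col4a6 at 1.3 kb, and 0.0832 for Itga1 and Itga2 at 20996 bases. Distances are the gaps between the annotated genes. Neighbours in the genome were thus not always alike in level across animals.

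The 2 members with the largest excess spread were examined by position, a choice made after the spread was seen. Col7a1 (chromosome 9, 108953586 to 108984875) was associated with 13 of 13440 genes, 0.0818% rising and 0.0149% falling. Lamb2 (chromosome 9, 108479736 to 108490530) was the single member among them, with a slope of 0.16 ± 0.02 (adjusted p = 2.92e-07, limma) and r = 0.624. Of the 12 associated genes with a position in the annotation, 11 started within 5 Mb of Col7a1. That is 9.02% of the genes measured there, against 0.00761% of genes elsewhere. They included Rhoa (0.09 ± 0.01), Usp19 (0.08 ± 0.02), Pfkfb4 (0.17 ± 0.03) and Ucn2 (0.33 ± 0.07), which rose, and Lrrc2 and Impdh2, which fell. With 3 principal components as covariates the number within 5 Mb was 15, without animals 1, 62 and 84 it was 7, without animals 29 and 69 it was 11, and Lamb2 passed in each of the 7 alternatives run.

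Itga4 (chromosome 2, 79255426 to 79333123) was associated with 150 genes, 0.841% of all genes rising and 0.275% falling (1.12% in all), and with 0 of the 69 other members (10 had an unadjusted p under 0.05, limma). Of the 34 measured genes that start within 5 Mb, 10 were associated (29.4%), against 1.04% elsewhere. Dusp19 (0.23 ± 0.03) and Nckap1 (0.17 ± 0.03) rose, and Frzb fell by 0.38 on the log2 scale (SE 0.06). Associated genes far from Itga4 numbered 138, and 11 without the 2 animals farthest from its median, while those nearby numbered 10 and 8. Far genes numbered 6 with 3 principal components as covariates, 91 without animals 29 and 69, and 275 with title-number run as covariate, against 8, 10 and 11 nearby. Col24a1, next by excess spread, was associated with 0 of 69 members (3 had an unadjusted p under 0.05, limma), against 0.662% of all genes rising and 0.543% falling. Of its nearby genes, 1 of 29 was associated (3.45%), against 1.2% elsewhere. With Itgb6, ninth by excess spread, 0 of 69 members passed the threshold (6 had an unadjusted p under 0.05, limma), against 0.208% of all genes rising and 0.0893% falling. Its shares were 1 of 24 genes near (4.17%) and 0.295% far. The near and far shares were 23.3% and 21.3% for Col1a1 and 14.6% and 10.8% for Col4a1. For Itga7, 13 of 79 nearby genes were associated, against 9.77% elsewhere. For Lama2 0 of 28 nearby genes was associated, against 1.73% elsewhere. These shares were not tested against each other.

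**Figure D5:**
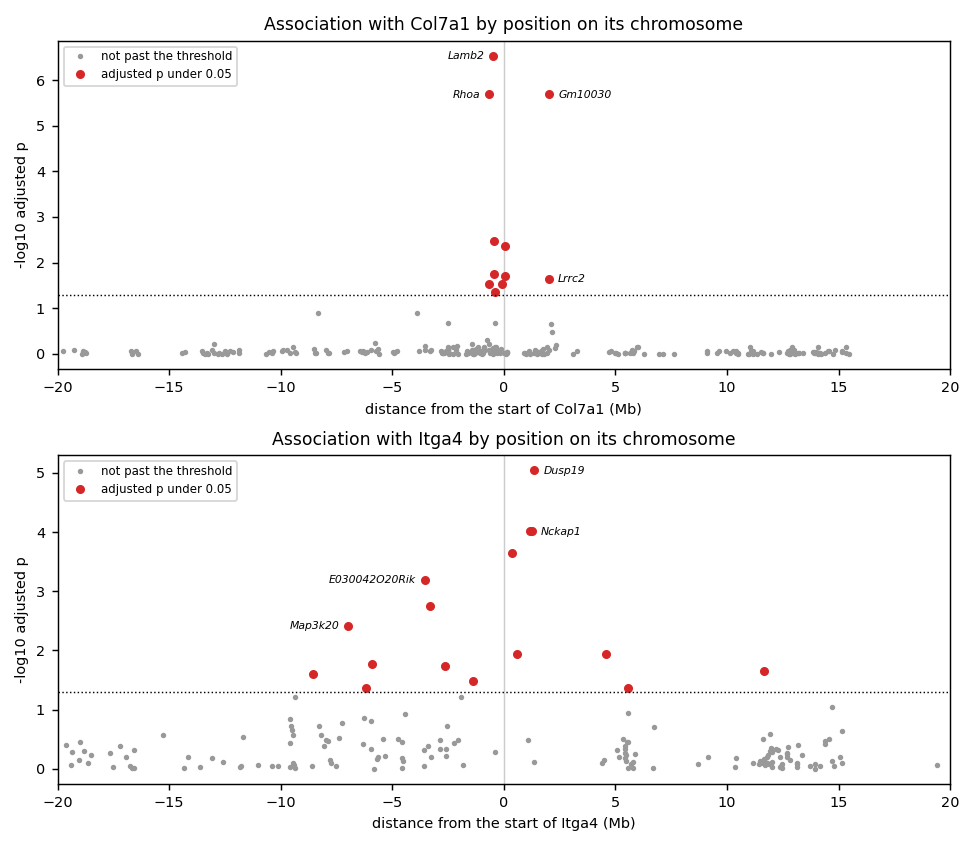
Association of each measured gene with Col7a1 (top) and Itga4 (bottom) as -log10 of the limma adjusted p, against the distance of its start from that of the predictor on the same chromosome, in Mb; red points are past the threshold of 0.05 (dotted line). For Col7a1 the red points, Lamb2 the highest, all lie within 5 Mb; for Itga4 the highest, Dusp19, lies 1.36 Mb away.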

How the data were processed

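Polyadenylated RNA of 92 quadriceps samples was sequenced from libraries made with 500 ng of RNA, per the labels' protocols. The table deposited by the authors holds log2 expression values. bcl2fastq, MultiQC, kallisto 0.50.1, edgeR and the mm10 assembly are named, per the submitters' processing notes, and the exact scaling, the low-gene filter and strand use are not given in the sources used here. In linear units a sample summed to between 898071 and 1140761, so the values are close to per-million. Of 13456 lines, 15 repeats were removed. Depth is unknown, so precision rests on the spread between animals, and p-values measure that spread only. Kallisto estimates from similar sequences can be split between related genes.

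Slopes on standardised predictors were fitted over all 92 animals with limma 3.58.1 (R 4.3.3; empirical Bayes with trend), with Benjamini-Hochberg adjustment over all genes and a threshold of 0.05. The read-count test foreseen was not usable on log2 values. Spread was set against a lowess trend (span 0.3, statsmodels 0.14.6). The fit was tested on simulated data in which genes varied independently, so that test does not cover the correlation between real genes. Merged exon lengths and positions came from GENCODE M21. The members, lists and tests were chosen with earlier results of these data known. Named genes were the predictors and fixed pairs, the 3 highest members per class by level, the 8 largest and 4 lowest excess spreads with a mean of at least 1, up to 5 rising and 5 falling members per fit, and integrin-named genes that are no chain; all other names were chosen after their values were seen. Fits on Col6a1, Lamb1, Itga4, Col7a1, Col24a1 and Itgb6 were added to the planned ones, those on Itga4, Col7a1 and Col24a1 after the spread was seen. Alternatives used title-number run, principal components or marker scores as covariates, left out animals, or changed the scale, the predictor's ranks or the gene filter. Triple-helix repeats of the proteins were not analysed here. One member is counted in all totals but is otherwise not reported here or drawn in the figures.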

Additional observations from a re-analysis of the deposited data

How the results depend on the processing

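Counts of members are given for settings that moved them by more than 1.5 times. Here and above, the shares of all genes under these alternative settings are not set beside the member counts. A moved count thus does not show whether members moved more than other genes. With the first 3 principal components as covariates, the members called were 9 for Col1a1 (35 without them), 10 for Col4a1 (25), 2 for Lama2 (5), 0 for Itga7 (4), 0 for Pdgfra (30), 5 for Pecam1 (1) and 3 for the difference between the Col1a1 and Col4a1 slopes (13). With fibroblast and endothelial marker scores they were 23, 14, 2 and 10 for Col1a1, Col4a1, Lama2 and Itga7, and 8 for the slope difference. Without the 2 animals farthest from the median of the predictor they were 1 for Lama2, 0 for Itga7 and 0 for Pecam1. With genes of mean at least 1 Lama2 had 3, and with ranks of the predictor Itga7 had 2. In settings added after the data were seen, leaving out animal 84 gave 2 for Lama2, 0 for Itga7 and 3 for Pecam1, and leaving out animals 1, 62 and 84 gave 1, 0 and 2, with 7 genes near Col7a1 (11). Leaving out animals 29 and 69 gave 0 for Itga7. The cause was not tested. Without animal 84 the other counts were 30 for Col1a1, 25 for Col4a1, 25 for Pdgfra and 12 for the slope difference. The 0 for Myh7 and for the title-number runs stayed 0 in the settings run. Of within-animal differences, and class medians of at least 0.1 in size, 5 values turned direction: Col1a1 minus Col1a2 was -0.34 by longest coding transcript (a length added later) and -0.19 unscaled, Col6a1 minus Col6a3 was -0.0107 unscaled, Col5a1 minus Col5a2 was -0.17 by longest coding transcript, and the median r of fibrillar collagens with leukocyte integrins was -0.0681 with 3 components removed. Median excess spread was 0.484 by median absolute deviation, 0.494 with span 0.6 and 0.585 at mean of at least 1. Values near 0 also changed sign. The r of Itga7 and Lama2 (0.0098) was -0.0251 with 3 components removed and -0.0699 without animal 84. The median among fibril-associated collagens (0.0140) was -0.0400 by Spearman, -0.0471 with 3 components removed and -0.0404 without animal 84, and that of fibrillar collagens with the same 6 integrin beta chains (-0.0039) was 0.0147 with 3 components removed. No paired analysis was possible because the study has 1 group, so no samples of different groups could be paired. The within-animal differences pair genes. Read depth, which is unknown, limits members near the lower end of the table.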
